A study of Mus musculus with 4 samples.

Results

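A set of 10 genes that encode cell surface markers of pluripotent states were examined on expression arrays of mouse embryonic stem cells and of the epiblast-like tissue formed from them. The 10 genes (Pecam1, Icam1, Jam2, Ncam1, Thy1, Cd9, Cd24a, Epcam, Kit and Podxl) were chosen by name, among 18193 genes named on the arrays. They were represented by every probe set that the platform annotation assigned to a single matching symbol, 25 probe sets in all of 45101 in the table. Where a single value is given for a gene, it is that of its brightest probe set, the one whose mean over the 4 arrays is highest.

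Total RNA from 2 samples of embryonic stem cells at day 0 and from 2 samples of epiblast-like tissue at day 3 was hybridized, after biotin labelling, to Affymetrix arrays, 1 sample to each of 4 arrays. In the culture, called SFEBq, dissociated stem cells quickly gather into floating aggregates in a medium free of serum. The labels name no stem cell line, genotype, sex or medium supplement, and they give all 4 samples the same cell type, differentiated mouse embryonic stem cells. A change of cell state therefore cannot be told apart from effects of aggregation, medium and time. The duplicates are not said to be separate cultures, so the spread between them may be technical. The limma standard errors and p-values rest on that spread and on a variance pooled over genes of like level.

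Pluripotent cells pass from a naive state, that of the inner cell mass and of embryonic stem cells, to the state of the post-implantation epiblast, an epithelium. The proteins at the cell surface change along this path, and antibodies to several of them are used to sort the states apart. Pecam1, Icam1, Jam2 and Ncam1 are adhesion molecules of the immunoglobulin superfamily, and Thy1 is a small member of that superfamily held in the membrane by a lipid anchor. Cd9 is a tetraspanin, a protein that crosses the membrane several times and organizes its partners. Cd24a encodes a short, heavily glycosylated protein with a lipid anchor. Epcam mediates contact between epithelial cells, Kit is the receptor tyrosine kinase for stem cell factor, and Podxl is a sialomucin of apical membranes.

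By their 10 gene values, 6 markers fell and 4 rose from day 0 to day 3 (limma, with a Benjamini-Hochberg adjusted p under 0.05 over all 18193 genes). Icam1, Jam2, Pecam1, Kit, Cd9 and Ncam1 were lower, and Podxl, Cd24a, Thy1 and Epcam were higher. Among all genes 42.3% were called, 21.4% lower and 20.9% higher. A difference of at least 2-fold was called for 8 of the 10, lower for Icam1, Jam2, Pecam1 and Kit and higher for the 4 risers. Among all genes such calls were made for 10.2%, with 4.25% at least 2-fold lower and 5.93% at least 2-fold higher. The median absolute log2 difference was 2.40 over the 10 markers and 0.21 over all genes, and the medians with sign were -0.72 and 0.01. The markers were proposed with results of these arrays known, so these counts describe the markers and give no independent support. For each of the 10, and for 69% of all genes, both arrays of one day lay above both arrays of the other.

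**Figure D1:**
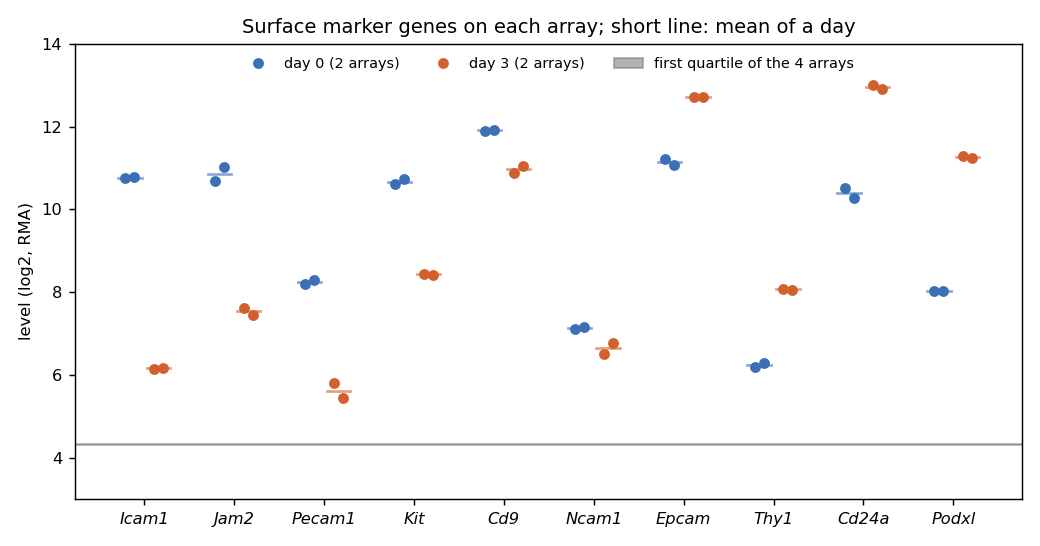
Log2 level (RMA) of each surface marker gene on each array, in order of the difference between days, with blue points for the 2 day 0 arrays, orange points for the 2 day 3 arrays, a short line at the mean of a day and a grey band at the first quartile of the arrays (4.30 to 4.33). The day 0 points lie above the day 3 points for the 6 genes from Icam1 to Ncam1 and below them for the 4 genes from Epcam to Podxl.

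Duplicate arrays were close to each other. Across genes, which are no independent replicates, Pearson's r was at least 0.9975 within a day and at most 0.9619 between the days, as a description of the arrays. The labels were set beside marker lists. These were chosen with earlier results of these data known, so the counts are no independent check of the labels. Over all genes 21.4% were called lower and 20.9% higher, and each list count is to be read beside these shares. Of 10 naive pluripotency genes 10 were lower at day 3 and of 9 formative and primed epiblast genes 8 were higher and 1 lower, each gene taken by its brightest probe set here and in the lists that follow, with the largest of these differences for Prdm14 (-4.84) and Fgf5 (7.57). Of 4 general pluripotency genes, 3 fell and Sox2 fell most (-0.64), while Pou5f1, the general pluripotency factor Oct4, was at 12.68 and 12.60 at day 0 and at 12.58 and 12.70 at day 3. Markers of visceral endoderm, an extra-embryonic epithelium, moved with the days as well. Of 12 measured, 11 rose, Apob most by these probe sets (6.79), although dimmer ones of Ttr (8.63 to 8.97) and Afp (7.30) rose more. The mean log2 level of the list was 6.79 to 6.83 at day 0 and 9.51 to 9.61 at day 3. These are bulk samples, so fewer cells of a type and less RNA per cell cannot be told apart. The part of endoderm cells in the surface marker results that follow was not tested.

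RefSeq promoter windows were at hand for 4 of the 10 markers, the fallers Icam1, Cd9 and Kit and the riser Epcam. The 250 bases before the most upstream start are shown because they belong to 3 genes that fell together and 1 that rose. Each is from build GRCm38.p6, written 5′ to 3′ along the gene. Capitals mark matches, on either strand, to any of 8 motifs: the STAT motif TTCNNNGAA, the NF-kB-like motif GGAANNTCC, the GC box spelled GGGCGG, the box named after its letters CCAAT, the TATA box spelled TATAAA, the E-box spelled CACGTG, the octamer ATGCAAAT of Oct factors and the Esrrb motif TCAAGGTCA.
Icam1, chr9:21015690-21015939, + strand: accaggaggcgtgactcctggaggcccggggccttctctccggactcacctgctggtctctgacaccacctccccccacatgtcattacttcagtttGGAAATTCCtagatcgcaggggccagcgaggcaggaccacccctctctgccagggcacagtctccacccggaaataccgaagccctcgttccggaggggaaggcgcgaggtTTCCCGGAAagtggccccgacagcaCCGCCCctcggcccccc
Kit, chr5:75574737-75574986, + strand: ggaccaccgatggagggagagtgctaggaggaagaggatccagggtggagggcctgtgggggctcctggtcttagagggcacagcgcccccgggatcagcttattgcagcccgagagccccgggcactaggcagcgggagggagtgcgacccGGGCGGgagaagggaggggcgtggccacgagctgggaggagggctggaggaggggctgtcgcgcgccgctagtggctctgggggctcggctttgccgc
Cd9, chr6:125494761-125495010, - strand: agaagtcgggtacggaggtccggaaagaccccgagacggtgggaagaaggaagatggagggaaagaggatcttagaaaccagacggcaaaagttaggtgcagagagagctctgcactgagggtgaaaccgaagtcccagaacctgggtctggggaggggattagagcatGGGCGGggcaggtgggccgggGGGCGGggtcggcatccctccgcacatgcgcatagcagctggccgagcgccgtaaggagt
Epcam, chr17:87635729-87635978, + strand: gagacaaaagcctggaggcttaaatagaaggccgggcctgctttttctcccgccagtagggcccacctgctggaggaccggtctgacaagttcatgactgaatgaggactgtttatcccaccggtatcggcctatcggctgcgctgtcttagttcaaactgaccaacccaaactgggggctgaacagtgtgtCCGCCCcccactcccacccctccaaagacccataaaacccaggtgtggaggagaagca

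Each of the 4 windows held at least 1 GC box, a motif found in 32.7% of 32851 promoter windows of that length. Cd9 had 2, at 81 and 60 bases before the start. The Icam1 window alone among the 4 also held a STAT motif, TTCCCGGAA at 42 bases, and an NF-kB-like motif, GGAAATTCC at 153 bases. Over all windows 7.02% held the STAT motif and 3.59% the NF-kB-like one. None of the 4 held the letters of the CCAAT box, TATA box, E-box, octamer or Esrrb motif, which were in 33.8%, 12.4%, 6.02%, 1.6% and 0.387% of all windows. The windows were rich in G and C, at 65.2% for Icam1, 70.8% for Kit, 61.6% for Cd9 and 56.4% for Epcam, against a median of 52.4%. A match is a description of the letters and says nothing of a factor's binding.

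Icam1, a ligand of leukocyte integrins that is also carried by embryonic stem cells, had the largest fall of the 10. Its single probe set, 1424067_at, read 10.76 and 10.77 on the log2 scale at day 0 and 6.14 and 6.17 at day 3. Both day 0 arrays stood far above both day 3 arrays, while duplicates differed by at most 0.032. The log2 difference was -4.61 ± 0.08 (SE), or 24.4-fold lower at day 3 (95% interval 21.6 to 27.6, limma adjusted p = 9.0e-11). Of all genes 99.8% had a smaller absolute difference. By the Euclidean distance between profiles over the 4 arrays, each centred on its own mean, the genes closest to Icam1 were Ak7 (distance 0.134), Gbx2 (0.200) and Khdc3 (0.203), with log2 differences of -4.63, -4.64 and -4.74. With 2 days and close duplicates, this distance depends mainly on the size of the difference between days. Shared regulation was not tested.

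Jam2, a junctional adhesion molecule, fell by all 5 of its probe sets, where 16.7% of all probe sets were called lower. The probe set with the highest mean, 1449408_at, read 10.69 and 11.03 at day 0 and 7.62 and 7.46 at day 3, without overlap. The gene difference was -3.32 ± 0.11 (SE), or 10.01-fold lower (95% interval 8.44 to 11.9, limma adjusted p = 4.6e-09). Probe set 1436568_at, the next by mean level, fell further, from 9.10 and 9.20 to 4.81 and 4.50, a log2 difference of -4.50. The smallest fall was that of 1419288_at, from 7.07 and 7.41 to 5.63 and 5.34, a difference of -1.75.

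The other Jam2 probe sets, 1431416_a_at and 1431417_at, had differences of -3.36 and -2.91. At day 3 both, like 1436568_at, read between 4.45 and 4.81. These levels are near the first quartile (4.30 to 4.33), where the size of a fall can be understated. Probe set 1431416_a_at had the same value, 4.54, on both day 3 arrays, as did 55 of the 45101 probe sets of the table. Whether probe sets of a gene changed by different amounts was tested on their difference within each array, over 16752 such pairs, of which 20.6% were called (limma, Benjamini-Hochberg). Relative to 1449408_at, probe set 1436568_at fell further by 1.17 ± 0.14 on the log2 scale (adjusted p = 3.3e-04), and 1419288_at fell less by 1.57 ± 0.13 (adjusted p = 3.9e-05). Both calls held in all 6 alternatives tried for pairs.

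Pecam1 encodes an adhesion molecule found on endothelial and blood cells and on naive pluripotent cells. Its single probe set, 1421287_a_at, read 8.20 and 8.29 at day 0 and 5.80 and 5.44 at day 3. Both day 0 arrays were higher, and the closest arrays of the 2 days lay 2.41 apart, against 0.35 between the day 3 duplicates. The log2 difference was -2.62 ± 0.13 (SE), a 6.16-fold fall (95% interval 5.05 to 7.53, limma adjusted p = 6.8e-08). Of 10 endothelial markers, 1 was higher, 2 were lower and 7 were not called, and the mean level of that list was 5.69 to 5.73 at day 0 and 5.66 to 5.71 at day 3. By the brightest probe set of each gene, Tek, an endothelial receptor kinase gene, had the largest difference of that list (-0.70). Flt1, a receptor of vascular endothelial growth factors, was the gene called higher (0.53), and a dimmer Flt1 probe set rose by 1.67 (adjusted p = 2.6e-04 over all probe sets). Egfl7, a secreted endothelial factor gene, was at 9.20 to 9.43 on the 4 arrays and was not called. Of the 10 genes 2, Tie1 and Emcn, were below the first quartile on all arrays. None of 10 blood cell genes was called by limma, with 1 at an unadjusted p under 0.05 and 0 by an unmoderated test, and the largest difference was that of Tal1 (0.34). Ptprc, the pan-leukocyte antigen Cd45, was below the first quartile on all arrays.

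Kit fell by both of its probe sets. Probe set 1452514_a_at, with the higher mean, read 10.61 and 10.73 at day 0 and 8.44 and 8.41 at day 3. The days were separated by 2.17 at the least and the duplicates by at most 0.11. The log2 difference was -2.24 ± 0.07 (SE), or 4.74-fold lower (95% interval 4.23 to 5.31, limma adjusted p = 4.2e-09). The dimmer probe set, 1415900_a_at, read 5.12 and 6.02 at day 0 and 4.34 and 4.56 at day 3, with the day 3 arrays close to the first quartile. It differed by -1.12 ± 0.25, which was called over all probe sets (adjusted p = 0.0062) and was smaller than the fall of the brighter one by 1.12 ± 0.24 (adjusted p = 0.0083 over all pairs). The change of the brighter minus that of the dimmer one was -0.73 without day 0 replicate 1 and -1.51 without day 0 replicate 2, called in both. Kitl, which encodes the ligand of Kit, was at 7.43 and 7.15 at day 0 and at 7.48 and 7.28 at day 3, a difference of 0.09 that was not called, as for its other 3 probe sets. Germ cells, which also carry Kit, were represented by 6 measured genes, of which 4 were lower, 1 higher and 1 not called at day 3. Of all genes 21.4% were called lower and 20.9% higher. The largest difference by the brightest probe sets was that of Tfap2c (-4.14), while Sycp3 rose by 2.45 and Ddx4 was not called (-0.0028).

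Cd9 had the second smallest fall. Its single probe set, 1416066_at, read 11.90 and 11.92 at day 0 and 10.88 and 11.05 at day 3. The day 3 arrays were lower without overlap, at a level that was still far above the first quartile. The log2 difference was -0.94 ± 0.07 (SE), a 1.92-fold fall (95% interval 1.73 to 2.13, limma adjusted p = 1.0e-06). With an unmoderated test per gene, which called 11.8% of genes, its adjusted p was 0.057. Among other tetraspanin genes, Cd81 and Cd151 each rose by 0.30 on the log2 scale, the latter with 2 of its 6 probe sets called. Cd82 was not called by its brightest probe set (0.08), but its other probe set rose by 1.68 (adjusted p = 1.9e-06 over all probe sets). Tspan8 rose by 1.82 by 1 of its 5 probe sets, the other 4 not being called. Igsf8, which encodes a partner of Cd9 and Cd81, rose by 0.80, and Ptgfrn, another such partner, was not called (difference 0.00).

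Ncam1, the neural cell adhesion molecule, had 7 probe sets and the smallest gene difference. Probe set 1426864_a_at, with the highest mean, read 7.11 and 7.15 at day 0 and 6.50 and 6.77 at day 3. The days did not overlap, but the closest arrays of different days were only 0.34 apart, against 0.27 between the day 3 duplicates. The log2 difference of -0.49 ± 0.12 (SE), 1.41-fold (95% interval 1.17 to 1.69), was called (limma adjusted p = 0.0062). Without day 3 replicate 1 it was -0.36 and was not called (adjusted p = 0.083), nor was it called by the unmoderated test (adjusted p = 0.17).

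A second Ncam1 probe set, 1426865_a_at, read 7.02 and 6.70 at day 0 and 5.84 and 5.61 at day 3, and its difference of -1.13 ± 0.15 was called over all probe sets (adjusted p = 2.2e-04). The other 5 were not called, with differences of -0.26 to -0.0044. Of these, 3 (1421966_at, 1425126_at and 1439556_at) were below the first quartile on all 4 arrays. None of the 6 pairs formed with 1426864_a_at was called by limma, with 2 at an unadjusted p under 0.05. The difference in change between the 2 called probe sets was 0.64 ± 0.21 (adjusted p = 0.057 over all pairs), 0.39 without day 3 replicate 2 and 0.89 without day 3 replicate 1. It was called in 3 of the 6 alternatives tried for pairs, namely with the replicate block (adjusted p = 0.015) and on leaving out day 0 replicate 2 (0.016) or day 3 replicate 1 (0.0094). Among 9 measured genes of neural progenitors and neurons, which carry Ncam1, 2 were higher, 3 lower and 4 not called. Of all genes 20.9% were called higher and 21.4% lower. By the brightest probe set of each gene, Sox1 fell by 2.82 and Map2 rose by 2.63 on the log2 scale. Sox1 was below the first quartile at day 3 (3.26 and 3.31), and Map2 at day 0 (3.65 and 4.13). The dimmer Sox1 probe set (0.09) was not called. St8sia2 and St8sia4, encoding the enzymes that add polysialic acid to Ncam1, were not called by any of their 4 probe sets.

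**Figure D2:**
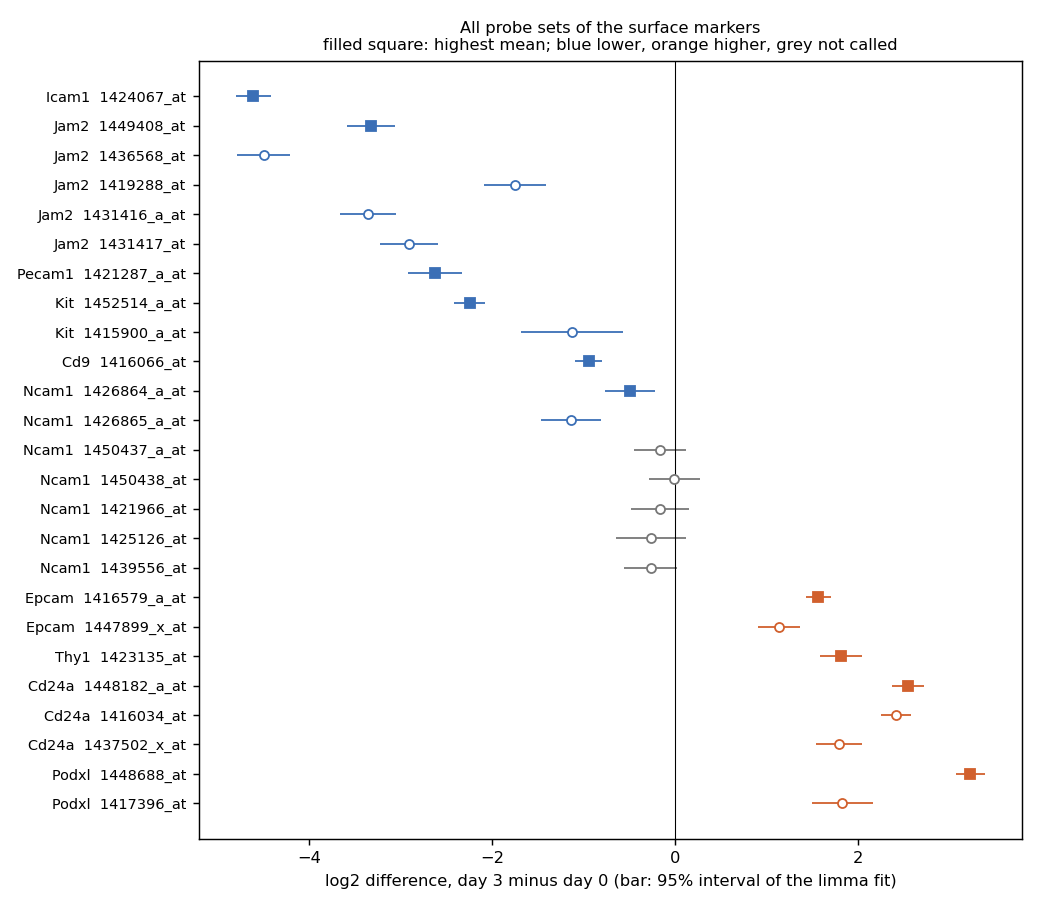
Log2 difference, day 3 minus day 0, of all 25 probe sets of the 10 genes, with the 95% interval of the limma fit; a filled square is the probe set with the highest mean, and blue, orange and grey stand for called lower, called higher and not called. Of the 25, 12 were lower, 8 higher and 5 not called, the 5 all of Ncam1, and no gene had called probe sets of both directions.

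Among all probe sets, 30.9% were called, 14.2% higher and 16.7% lower, beside which the 20 called of 25 are to be read. Probe sets of a gene target different stretches of its transcripts, and RMA compresses the differences of dim ones. Which of these lay behind a difference in change was not tested. Of 15 pairs of marker probe sets, 6 were called for a difference in change, where 20.6% of pairs over all genes were. In none of those 6 did the 2 probe sets move in opposite directions. Pairs of the same gene share its brightest probe set, so they are not independent.

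Podxl had the largest rise of the 10. Probe set 1448688_at read 8.04 and 8.03 at day 0 and 11.29 and 11.25 at day 3. Day 3 arrays were higher by at least 3.21, while duplicates differed by at most 0.044. The gene rose 9.41-fold (95% interval 8.47 to 10.5), a log2 difference of 3.23 ± 0.07 (SE, limma adjusted p = 2.6e-10). A dimmer probe set, 1417396_at, read 5.86 and 6.33 at day 0 and 7.94 and 7.91 at day 3. It rose by 1.83 ± 0.15, less than the brighter one by 1.40 ± 0.16 (adjusted p = 2.8e-04 over all pairs). The mean of both probe sets rose by 2.53.

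Among the genes with profiles closest to Podxl, by the distance used for Icam1, were Cachd1 (distance 0.0845), Prom1 (0.0898) and Mal2 (0.127), with log2 rises of 3.18, 3.24 and 3.21. Prom1 encodes prominin, a protein of membrane protrusions and itself a surface marker of stem and progenitor cells. The adaptor gene Slc9a3r1, whose product links Podxl to the cytoskeleton, rose by 0.91 ± 0.05 (adjusted p = 2.8e-07), by all 3 of its probe sets, and Ezr, encoding the cytoskeletal linker ezrin, was not called (0.03 ± 0.06). Podxl2, a relative of Podxl, was not called either, while Cd34, of the same family, rose by 0.84 ± 0.20 (adjusted p = 0.0064) from a level near the first quartile (4.32 and 3.96 at day 0, 4.66 and 5.30 at day 3).

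Cd24a rose by all 3 of its probe sets, where 14.2% of all probe sets were called higher. Probe set 1448182_a_at, with the highest mean, read 10.52 and 10.29 at day 0 and 13.005 and 12.91 at day 3. Both day 3 arrays were higher, by at least 2.39. The gene difference was 2.55 ± 0.08 (SE), or 5.86-fold (95% interval 5.20 to 6.61, limma adjusted p = 2.8e-09). Probe set 1416034_at rose by 2.42, from 9.73 and 9.58 to 12.13 and 12.01, and its change differed from that of the first by 0.14 (95% interval -0.025 to 0.30). Probe set 1437502_x_at, whose suffix warns that its probes can match other transcripts, rose by 1.80, less than the first by 0.76 ± 0.08 (adjusted p = 1.3e-04 over all pairs).

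Epcam, already at a high level in stem cells, rose by both of its probe sets. Probe set 1416579_a_at read 11.21 and 11.08 at day 0 and 12.72 and 12.71 at day 3. The day 3 arrays were higher by at least 1.499, and the day 0 duplicates differed by 0.13. The log2 difference was 1.57 ± 0.06 (SE), a 2.97-fold rise (95% interval 2.71 to 3.26, limma adjusted p = 1.0e-08). The second probe set, 1447899_x_at, rose by 1.14 ± 0.10, from 8.45 and 8.18 to 9.41 and 9.50. The difference between the 2 rises was 0.43 ± 0.09 (adjusted p = 0.0090 over all pairs), and the call was lost when the variance had no intensity trend (adjusted p = 0.063) or when day 3 replicate 1 was left out (adjusted p = 0.079). Cldn7, a claudin that binds Epcam at lateral membranes, rose by 4.02 ± 0.07, from 7.526 and 7.498 to 11.49 and 11.57 (adjusted p = 9.6e-11). Visceral endoderm, an epithelium whose markers rose in the same arrays (mean log2 level 6.79 to 6.83 at day 0, 9.51 to 9.61 at day 3), also expresses Epcam.

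Thy1, the lipid-anchored antigen known from thymocytes, neurons and fibroblasts, rose. Its single probe set, 1423135_at, read 6.20 and 6.29 at day 0 and 8.08 and 8.05 at day 3. The days were separated by at least 1.76 and the duplicates by at most 0.089. The gene rose 3.54-fold (95% interval 3.03 to 4.13), a log2 difference of 1.82 ± 0.10 (SE, limma adjusted p = 1.5e-07). Of 10 fibroblast genes, 3 were higher, 1 lower and 6 not called, and the list's mean log2 level was 5.43 to 5.45 at day 0 and 5.26 to 5.36 at day 3. Without Vim, an intermediate filament gene shared by many cell types that fell by 3.42, the mean of the other 9 genes was 4.65 on both day 0 arrays and 4.94 and 4.83 at day 3. Dcn, a proteoglycan gene of that list, rose by 0.96, while Col3a1, Lum, Postn and Fap were below the first quartile on all 4 arrays. Thy1, Icam1 and Ncam1 all lie on chromosome 9, and Thy1 was the only one of these 3 to rise.

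**Figure D3:**
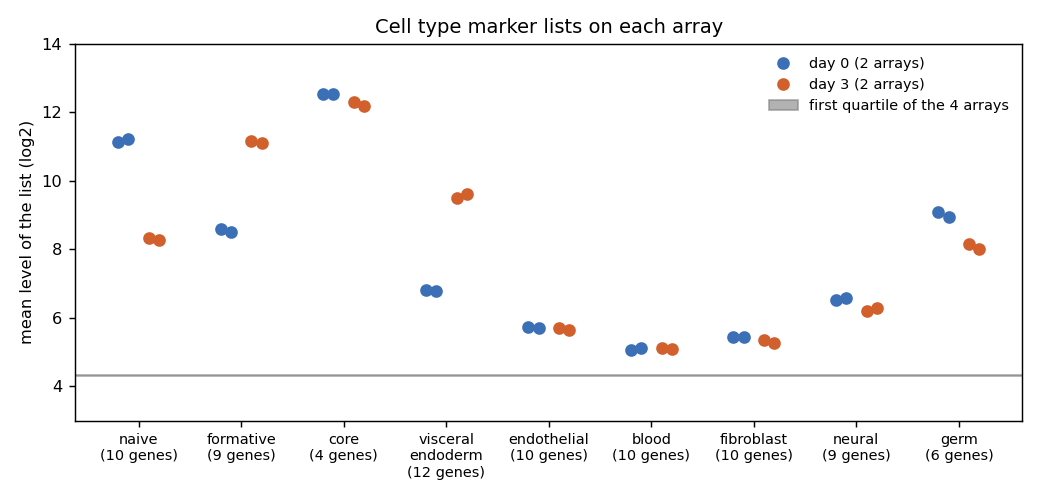
Mean log2 level of each cell type marker list on each array, blue for day 0 and orange for day 3, with the number of measured genes under each name. The naive list lies lower at day 3 (11.14 and 11.22 against 8.33 and 8.29). The formative list (8.59 and 8.50 against 11.17 and 11.10) and the visceral endoderm list (6.83 and 6.79 against 9.51 and 9.61) lie higher. The mean of the germ list lies lower as well (9.10 and 8.94 against 8.17 and 8.02), although Sycp3 of that list rose. The endothelial, blood and fibroblast lists lie between 5.06 and 5.73 on all arrays.

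The markers were set beside other members of their protein families. Of 17 measured relatives, 8 rose, 2 fell and 7 were not called, with a median log2 difference of 0.23. Of all genes 20.9% were called higher and 21.4% lower. In the junctional adhesion family Jam2 fell, but Jam3 rose by 1.21 ± 0.13 (SE, adjusted p = 2.2e-05), from 6.86 and 7.25 to 8.32 and 8.21, and F11r, also known as Jam1, rose by 0.61 ± 0.07 (adjusted p = 3.5e-05). For each of these, a dimmer second probe set was not called, with differences of 0.23 and 0.29. Beside the fall of Icam1, Icam2 fell by 0.59, from 5.06 and 4.83 to 4.27 and 4.44, the latter close to the first quartile. Icam4 and Icam5 were not called. Ncam2 rose by 0.45 but was below the first quartile on all 4 arrays. Among receptor kinases related to Kit, Pdgfra rose by 0.82 by its brightest probe set, and by all 3 of its probe sets, while Pdgfrb, Csf1r and Flt3 were not called.

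Of 23 ligands, receptors and other partners, 6 rose, 17 were not called and none was called lower by limma, each by its brightest probe set. These counts stand beside 20.9% of all genes called higher and 21.4% called lower. At an unadjusted p under 0.05, 7 were higher and 1 lower, and an unmoderated test called 3 higher and 1 lower. The median log2 difference was 0.06. The 3 largest rises by these probe sets were those of Cldn7, Jam3 and Slc9a3r1. Itgal and Itgb2, the chains of the integrin that binds Icam1 on leukocytes, were not called by the probe set with the highest mean. A second Itgal probe set fell by 0.85 (adjusted p = 0.0024 over all probe sets), from 5.26 to 4.41, the latter close to the first quartile. Dimmer probe sets of 2 other partners were called lower as well. They were 4 of the 6 of Slc9a3r2, which encodes a scaffold protein that binds podocalyxin (-0.82, -0.62, -0.57 and -0.38), and 1 of the 2 of Itgb3, an integrin chain gene (-0.65).

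Of 25 other measured surface genes used to sort pluripotent or early differentiated cells, 10 rose, 10 fell and 5 were not called, by their brightest probe sets. Of these, 7 rose and 8 fell by at least 2-fold, and the list's median log2 difference was -0.16. Over all genes 20.9% were called higher and 21.4% lower, with 5.93% and 4.25% called and at least 2-fold. The log2 difference was below -2 for the Nodal co-receptor gene Tdgf1 (-2.94), the adhesion molecule gene Mcam (-2.55), Alpl, encoding the alkaline phosphatase of stem cells (-2.13), and Lifr, encoding the receptor of leukemia inhibitory factor (-2.06). It was above 2 for Prom1 (3.24), Cd44, a hyaluronan receptor (2.55), and Cdh2, N-cadherin (2.32). Cd44 came from values below the first quartile at day 0 (3.64 and 3.36), and of its 4 probe sets 2 were called. Both Cdh2 probe sets rose, by 2.32 and 2.33. Cdh1, E-cadherin, rose by 1.26 from 11.71 and 11.52 to 12.95 and 12.79. Eng was not called by its brightest probe set (-0.23). Its dimmer one fell from 7.45 to 5.86, a difference of -1.58 (limma adjusted p = 7.5e-06 over all probe sets).

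**Figure D4:**
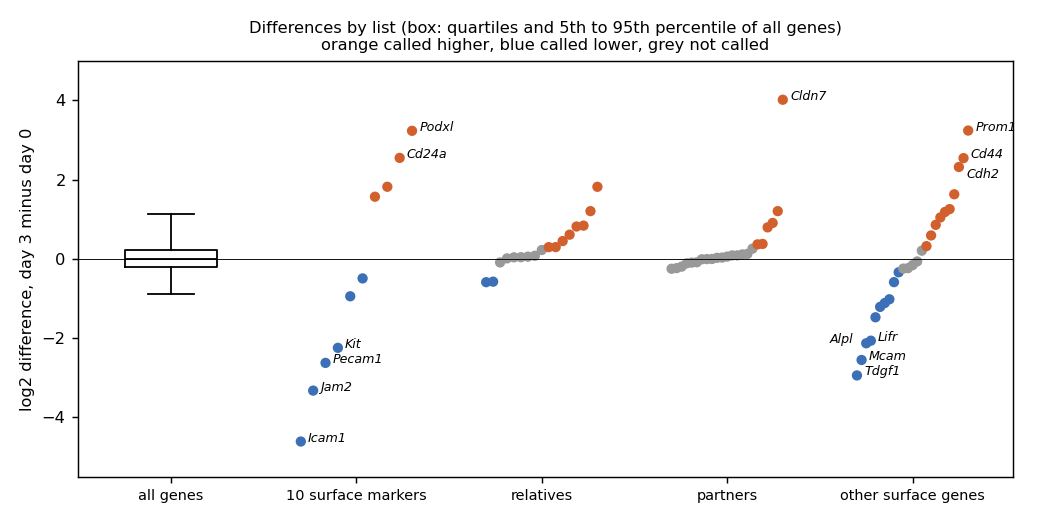
Log2 difference, day 3 minus day 0, for the 10 surface markers, their relatives, their partners and other surface genes, each point a gene (orange called higher, blue called lower, grey not called), beside a box of all genes with quartiles and the 5th to 95th percentile. The markers spread from -4.61 (Icam1) to 3.23 (Podxl), and genes past a log2 difference of 2 in either direction are named.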

How the data were processed

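The submitters' processing notes name RMA, which corrects background, equalizes the arrays' distributions and summarises probes, and R 2.13.0. Other settings, and a genome build, are not given in the sources used here. Deposited values are log2 levels. Differences of dim probe sets are compressed by RMA, and a change in total RNA per cell cannot be seen. The number of arrays limits the precision.

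After removal of 64 controls, 34945 probe sets had 1 symbol in the platform annotation. The brightest probe set of each gene was fitted with limma 3.58.1 in R 4.3.3 (lmFit, eBayes with an intensity trend, no covariate), two-sided, with Benjamini-Hochberg adjustment over 18193 genes. In the gene fit the pooled variance carried 8.02 prior degrees of freedom, against 2 residual ones per gene, so standard errors are moderated. The same fit was run over 45037 probe sets and, on within-array differences, over 16752 pairs of probe sets of a gene. Procedures were tested on simulated data.

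The members, lists and tests were chosen with earlier results of these data known. Named genes were the 10 members, the 3 largest called differences and those beyond 2 on the log2 scale among relatives, partners and other surface genes, the largest difference of each cell type list, and the 3 nearest profiles of 2 members. Other list genes were named for their role or for how they changed, after their values were seen. Alternatives were other variance models, normalizations, filters and probe set choices, the replicate block, each array left out, limma's treat at a log2 difference of 1 and a stricter adjusted p of 0.01. The labels do not say whether replicate numbers pair the samples, so the main fit had no block.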

Additional observations from a re-analysis of the deposited data

How the results depend on the processing

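Across the alternatives run for the counts, 4 markers were called higher in each. The number called lower was 4 to 6, with 4 under an unmoderated test, under treat and among genes above the median level, and 5 on leaving out day 3 replicate 1. Of all genes, the unmoderated test called 11.8% and treat 6.24%, and 65.9% were called among genes above the median level. The number called lower was 6 with no intensity trend, a robust variance fit, renewed quantile normalization or median centring. It was also 6 with averaged probe sets, no _x_at or _s_at probe sets, the replicate block or a stricter adjusted p. In these settings, the stricter adjusted p apart, 38.5% to 42.5% of the genes tested were called. In 125 of 128 alternatives for single markers the direction and the side of the threshold were those reported. The exceptions were Ncam1 with an unmoderated test (-0.49, adjusted p = 0.17) and on leaving out day 3 replicate 1 (-0.36, adjusted p = 0.083), and Cd9 with an unmoderated test (-0.94, adjusted p = 0.057). That test rests on 2 residual degrees of freedom and called 11.8% of genes. With 1 array left out the difference of Ncam1 ranged from -0.63 to -0.36, and a day with a lone array was then assumed to vary like the other. Against a log2 difference of 1, treat called 8 of the 10 markers, all but Cd9 and Ncam1, and 6.24% of all genes. Pecam1 and Ncam1 were not among the genes above the median level, so that alternative gave them no value. It called 65.9% of the genes above that level. With the replicate block 6 markers were lower and 4 higher, as without it, and 7 pairs of probe sets were called instead of 6. Deviations of same-numbered arrays from their day's mean had a correlation of -0.017 over genes. With duplicates only, this value cannot show whether same-numbered samples share a culture or batch. The number of called pairs ranged from 6 to 7 with 1 array left out and was 5 without the intensity trend.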
